A study of Mus musculus with 4 samples.

Results

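The 10 genes described here are 6 semaphorins (*Sema3a*, *Sema3c*, *Sema3f*, *Sema3g*, *Sema6a* and *Sema7a*) and 4 plexins (*Plxna1*, *Plxna2*, *Plxnb2* and *Plxnd1*). They were taken by gene symbol from a table of 18373 genes, which holds 29 rows named as semaphorins of classes 3 to 7 or as plexins A to D. Expression was measured by RNA-seq in primary liver sinusoidal endothelial cells (LSEC), the fenestrated endothelium that lines the liver sinusoids. The study asked what loss of the long noncoding RNA *Airn* does to these cells. Cells of 8-week-old Balb/c mice were taken from perfused livers, selected with beads against CD146, plated on collagen and cultured for 24 h, then transfected for 48 h, and they are labelled as day 3 of culture. There were 2 libraries of cells given a control siRNA (NC) and 2 of cells given siRNA against *Airn* (si*Airn*), so both groups share the strain and the protocols for isolation, culture and transfection. The design text speaks of 2 separate si*Airn*, while the titles of both libraries carry the name siAirn1, and the siRNA of each library is therefore unknown. The replicates are called biological, but how many mice or isolations stand behind them is not stated, so p-values measure the spread between these libraries.

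The libraries held between 17308382 and 18371959 estimated counts, and their library-size factors differed by little (0.985 to 1.02). *Airn* (gene ID 104103) had 7 and 3 counts in the NC libraries, against 11 and 9 with si*Airn*. The ratio of the summed counts was 1.97 (exact 95% interval 0.880 to 4.71). This interval, like the others below, holds counting error alone. The counts of the targeted RNA were thus not below those of NC, and all directions follow the labels. An exchange of the labels would turn every direction, and whether they are right was not tested. The study reports efficient knockdown by siAirn-1 and by siAirn-2 and, by qRT-PCR, lower *Lyve-1*, *VE-cadherin*, *Vegfr2* and *Hgf* after knockdown. Log2 fold changes here, si*Airn* minus NC, were -0.84 for *Lyve1*, -0.58 for *Cdh5* (VE-cadherin), 0.02 for *Kdr* (*Vegfr2*) and 0.57 for *Hgf*. *Lyve1* and *Cdh5* passed edgeR's quasi-likelihood test, with adjusted p of 0.0085 and 0.0134. *Kdr* (adjusted p = 0.901) and *Hgf* (0.0752) did not pass that edgeR test. *Hgf* is also in the list of stellate cell and fibroblast markers used below. From its RNA-seq, the study names *Flt4*, *Lyve-1* and *Stab1* as lower after knockdown. Their log2 fold changes here were -0.58, -0.84 and -0.55. The most abundant of 13 LSEC markers were *Oit3*, *Stab1* and *Flt4*, at 872, 658 and 548 CPM in NC replicate 1 and 555, 424 and 342 CPM in si*Airn* replicate 2, where CPM are counts scaled to library size. The list was not high throughout, since *Clec4g* reached 44.1 and 42.3 CPM with NC but 19.7 and 14.7 CPM with si*Airn*, while *Cd209b* had 0, 2, 1 and 0 counts and was not tested. Defining genes of endothelium were abundant too, led by *Eng*, *Cdh5* and *Pecam1*. The labelled cell type was therefore present, and so was RNA of stellate cells, hepatocytes and macrophages, whose levels are given beside the results they move with.

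Semaphorins are guidance proteins that bind plexins, single-pass receptors with an intracellular domain that acts on small GTPases and loosens adhesion to the matrix. Class 3 semaphorins are secreted and most of them reach A plexins through the co-receptors neuropilin 1 and 2, whereas Sema3e binds plexin D1 directly. Semaphorins of classes 4 to 6 are mostly transmembrane, and Sema7a is anchored by a lipid tail. In endothelium these proteins are known for restraining sprouting, for vessel patterning and for control of permeability, and plexin D1 is the plexin best known from vessels.

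Stretches before 3 transcription starts are shown as context for a member that was higher (*Plxnb2*), for the most abundant member (*Plxnd1*) and for the member with the smallest adjusted p among those that were higher (*Sema3a*). They are RefSeq sequences of GRCm38.p6, each 250 bases long and read 5′ to 3′ on the gene's strand, ending at the base before an annotated start. Capitals mark CACCC or its complement GGGTG, the core that KLF-type zinc finger factors bind.
Plxnb2, minus strand, chr15:89180789-89181038: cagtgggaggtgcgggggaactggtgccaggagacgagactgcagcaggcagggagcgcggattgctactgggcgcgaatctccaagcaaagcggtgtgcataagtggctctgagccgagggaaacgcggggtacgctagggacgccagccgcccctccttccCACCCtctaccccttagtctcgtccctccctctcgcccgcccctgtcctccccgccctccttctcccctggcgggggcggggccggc
Plxnd1, minus strand, chr6:115995006-115995255: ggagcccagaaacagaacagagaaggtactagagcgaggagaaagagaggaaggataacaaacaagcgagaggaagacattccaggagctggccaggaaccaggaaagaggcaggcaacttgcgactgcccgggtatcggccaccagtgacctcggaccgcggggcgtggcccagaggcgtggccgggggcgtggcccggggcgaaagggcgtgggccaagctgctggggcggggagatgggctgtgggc
Sema3a, plus strand, chr5:13396534-13396783: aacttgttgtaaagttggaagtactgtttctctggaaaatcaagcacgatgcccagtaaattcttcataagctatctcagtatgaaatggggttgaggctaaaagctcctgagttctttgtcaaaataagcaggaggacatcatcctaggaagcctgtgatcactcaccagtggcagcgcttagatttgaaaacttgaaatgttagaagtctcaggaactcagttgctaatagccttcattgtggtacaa
The *Plxnb2* and *Plxnd1* stretches lie outside any annotated gene and end at the 5′ edge of the GENCODE M21 gene. The *Sema3a* stretch lies in an intron of *Sema3a*, 271369 bases inside the gene, before a later start. GC content was 69.2%, 64.8% and 40.8% in this order. The *Plxnb2* stretch held 1 CACCC core and the others held 0. RefSeq windows were matched for 7 of the 10 members, with 8 starts, because *Plxnb2* has 2, and *Sema3f*, *Sema6a* and *Plxna1* were not matched. A CACCC core on either strand was found in 6 of the 8 windows, and in 52.0% of all 32851 RefSeq windows of 250 bases. Some windows with the core lie inside their own gene. Those of *Plxna2* and *Sema3c* are exonic over all 250 bases, and that of the other *Plxnb2* start is 6836 bases inside the gene. GGAA or its complement TTCC, the core of ETS factors, was found in 6 of the 8 and in 93.4% of all windows. These matches are letters in a window and are no evidence of binding.

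Per length, *Plxnd1* had the highest level of the 10 members in every library. Levels are compared between genes in FPKM, the deposited values scaled to transcript length and library size. *Plxnd1* (gene ID 67784) was far above the other members, at 129.34 and 111.23 FPKM in NC and 129.08 and 115.63 in si*Airn*. It lay above 95.4% to 96.4% of all genes in the table. In NC it was followed by *Sema3f* (28.4 FPKM) and *Plxnb2* (27.4), whose ranges overlapped, and then by *Plxna2* (13.8), *Plxna1* (11.6), *Sema6a* (10.7) and *Sema3a* (8.97), whose ranges did not. *Sema7a*, *Sema3c* and *Sema3g* were near the floor, at 0.300, 0.180 and 0.175 FPKM, and the ranges of the last pair overlapped. In si*Airn* the order below *Plxnd1* was *Plxnb2* (35.2), *Plxna1* (18.0), *Sema3f* (17.7), *Plxna2* (15.4), *Sema3a* (14.4), *Sema6a* (9.49), *Sema3c* (0.485), *Sema7a* (0.285) and *Sema3g* (0.0700). There, the neighbours among *Plxna1*, *Sema3f*, *Plxna2* and *Sema3a* overlapped. By group means, *Sema3f* went from place 2 to place 4, and *Plxna1* from place 5 to place 3. By library, *Sema3f* held place 3 in NC replicate 2 and in si*Airn* replicate 1, and *Plxna1* held place 4 in si*Airn* replicate 1.

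**Figure D1:**
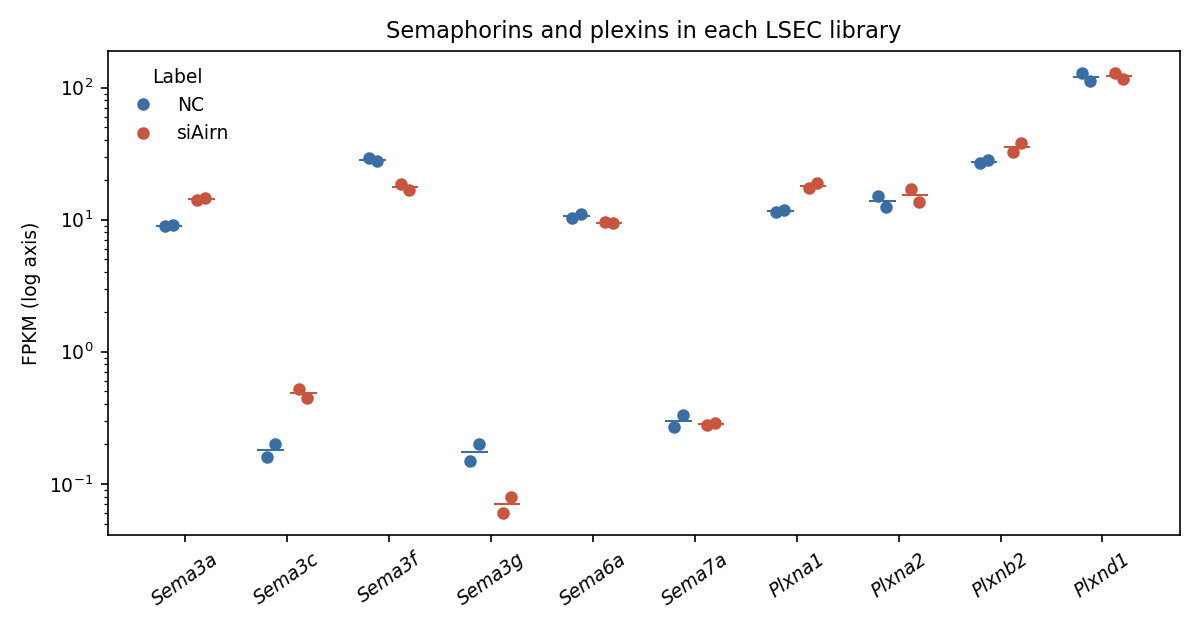
Level of each member in FPKM (vertical log axis) in every library; points are libraries, horizontal lines are group means (n = 2 each), blue is NC and red is siAirn. The points of *Plxnd1* stand near 120 FPKM in both groups, whereas *Sema3f* is lower and *Sema3a*, *Sema3c* and *Plxna1* are higher in siAirn with a clear gap.

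Between the groups, 5 of the 10 members passed an adjusted p of 0.05 in edgeR's quasi-likelihood test, 4 of them higher in si*Airn* (*Sema3a*, *Sema3c*, *Plxna1* and *Plxnb2*) and 1 lower (*Sema3f*). Of the 13628 genes tested, 16.8% passed, 8.27% higher and 8.56% lower. The 2 libraries of each group did not overlap for 7 members, 4 higher and 3 lower, and this was so for 62.7% of all genes tested, so that separation alone says little about these genes. The study's own threshold is a fold change over 1.4 with p under 0.05, and that p was read here as unadjusted. It was met by 5 members, with *Sema3g* in and *Plxnb2* out, and by 9.96% of all genes tested. The members had a median log2 fold change of 0.12, beside 0.00 over all genes tested. All 10 entered the test, but *Sema3g* did so only through its higher NC counts. Without NC replicate 1 or without NC replicate 2, 0 members passed the adjustment, and 0.286% and 0% of all genes did. An unadjusted p under 0.05 was found for 5 members in each case, *Sema3a*, *Sema3c*, *Sema3f* and *Plxna1* in both, with *Sema6a* without NC replicate 1 and *Plxnb2* without NC replicate 2. So low an unadjusted p was found for 3506 of 13986 genes tested without NC replicate 1 and for 3106 of 13913 without NC replicate 2. In bulk RNA, fewer cells of a type and less RNA per cell cannot be told apart, and the marker sums that moved with the labels are given with the results.

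**Figure D2:**
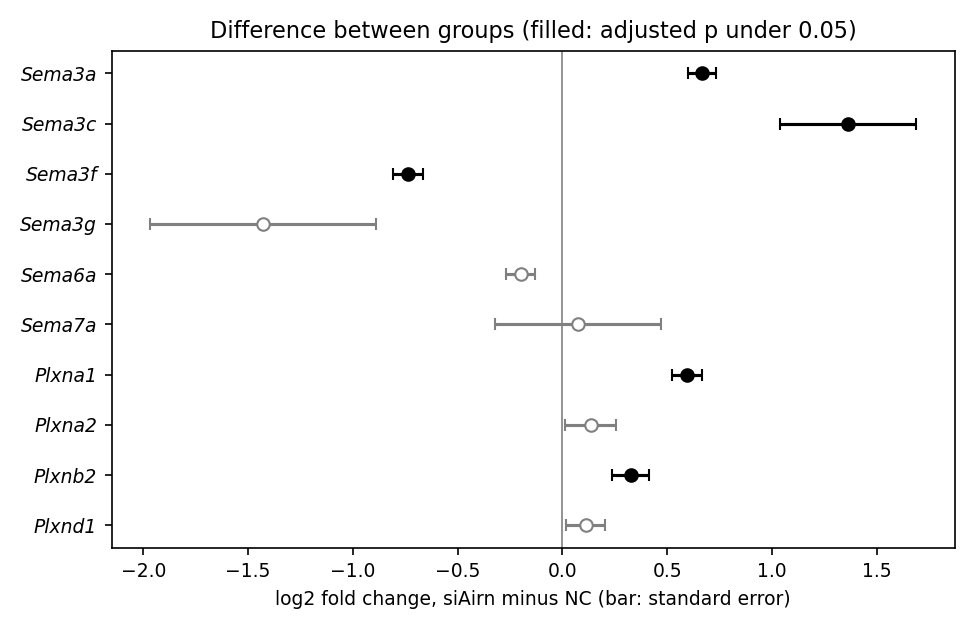
Log2 fold change of each member, siAirn minus NC, from edgeR's quasi-likelihood test (horizontal axis); bars are standard errors (2 libraries per group) and filled points have an adjusted p under 0.05. The class 3 semaphorins lie on both sides of 0, from 1.36 for *Sema3c* to -1.43 for *Sema3g*, and the 4 plexins lie between 0.11 and 0.60.

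Among the secreted ligands, *Sema3a* and *Sema3f* moved in opposite directions. *Sema3a* (gene ID 20346), a repulsive ligand of neuropilin 1 and A plexins, had 1033 and 1121 counts in the NC libraries, against 1707 and 1761 with si*Airn*, or 60.3 and 62.0 CPM against 94.4 and 99.6. Both si*Airn* libraries lay well above both NC libraries. It rose from 61.1 ± 1.19 to 97.0 ± 3.62 CPM (SD, n = 2 each), by a log2 fold change of 0.67 (standard error, SE, 0.07; adjusted p = 0.0050 in the quasi-likelihood test of edgeR, with Benjamini-Hochberg adjustment). With trends on GC content and transcript length removed per library, the log2 fold change was 0.44 and the call was kept. *Sema3f* (gene ID 20350), which acts mainly through neuropilin 2, had 1622 and 1641 counts in the NC libraries, against 1045 and 943 with si*Airn*. The gap between the groups was several times the gap between replicates. It fell from 92.7 ± 2.79 to 55.6 ± 3.18 CPM (SD, n = 2 each), with a log2 fold change of -0.74 (SE 0.07; adjusted p = 0.0050, same edgeR test) and of -0.61 with the GC and length trends removed. In GENCODE M21 the longest *Sema3a* transcript is 40.8% GC and that of *Sema3f* 58.4%. Across 12905 genes the log2 fold change went with GC content (Spearman correlation -0.333) and with length (0.364), which describes these 4 libraries over genes that are not independent.

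The ratio of *Sema3a* to *Sema3f* in FPKM was 0.307 and 0.324 in NC and 0.757 and 0.869 in si*Airn*. *Sema3f* thus remained the higher of the 2 in every library, by a smaller margin in si*Airn*.

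*Sema3c* (gene ID 20348), a ligand of both neuropilins with roles in heart outflow and vessel patterning, was scarce. It had 14 and 18 counts in the NC libraries, against 45 and 39 with si*Airn*, without overlap. The ratio of the summed counts was 2.59, with an exact 95% interval for counting error from 1.70 to 4.02. The log2 fold change was 1.36 (SE 0.33; adjusted p = 0.0328 in the quasi-likelihood test of edgeR, with Benjamini-Hochberg adjustment). The call was lost with the GC and length trends removed (log2 fold change 1.18, adjusted p = 0.0635 by edgeR) and without any 1 of the 4 libraries (adjusted p from 0.0716 to 0.162). DESeq2 gave it no adjusted p.

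*Sema3g* (gene ID 218877), known from arterial endothelium, was the scarcest member. Its counts were 11 and 16 in NC and 4 and 6 in si*Airn*, near the limit of 3 counts that a count of 0 allows (0.163 to 0.173 CPM). The groups did not overlap, and the ratio of the summed counts was 0.365 with an exact 95% interval from 0.158 to 0.778. The log2 fold change of -1.43 (SE 0.54) did not pass the adjustment (adjusted p = 0.113 by edgeR).

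With the class 3 genes outside the list added, the make-up of this class differed between the groups more than its total did. *Sema3d* had 1318 and 1569 counts in the NC libraries, against 2034 and 2761 with si*Airn* (log2 fold change 0.71, adjusted p = 0.024 in the quasi-likelihood test of edgeR, with Benjamini-Hochberg adjustment). *Sema3e*, the plexin D1 ligand, had 146 and 211 counts in the NC libraries, against 292 and 455 with si*Airn* (log2 fold change 1.05, adjusted p = 0.031, edgeR's same test). For both genes the si*Airn* libraries lay above the NC libraries but differed from each other by more than the NC libraries did. Without si*Airn* replicate 2 the log2 fold changes were 0.46 and 0.68. With the GC and length trends removed they were 0.46 and 0.80 and neither passed (adjusted p = 0.117 and 0.0938 by edgeR). *Sema3b* had 2, 2, 3 and 2 counts and was not tested. Summed over the 7 class 3 genes, the level was 51.4 and 52.4 FPKM in NC and 53.7 and 60.5 in si*Airn*. *Sema3f* held 56.4% and 53.2% of that sum in NC and 34.7% and 27.8% in si*Airn*. The share of *Sema3a* was 17.3% and 17.2% in NC and 26.2% and 24.2% in si*Airn*. That of *Sema3d* was 23.1% and 25.5% in NC and 33.4% and 40.6% in si*Airn*. *Sema3d* was the highest of the class in si*Airn* replicate 2, and *Sema3f* in the other 3 libraries. Shares of a sum depend on each other, and they were not tested.

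**Figure D3:**
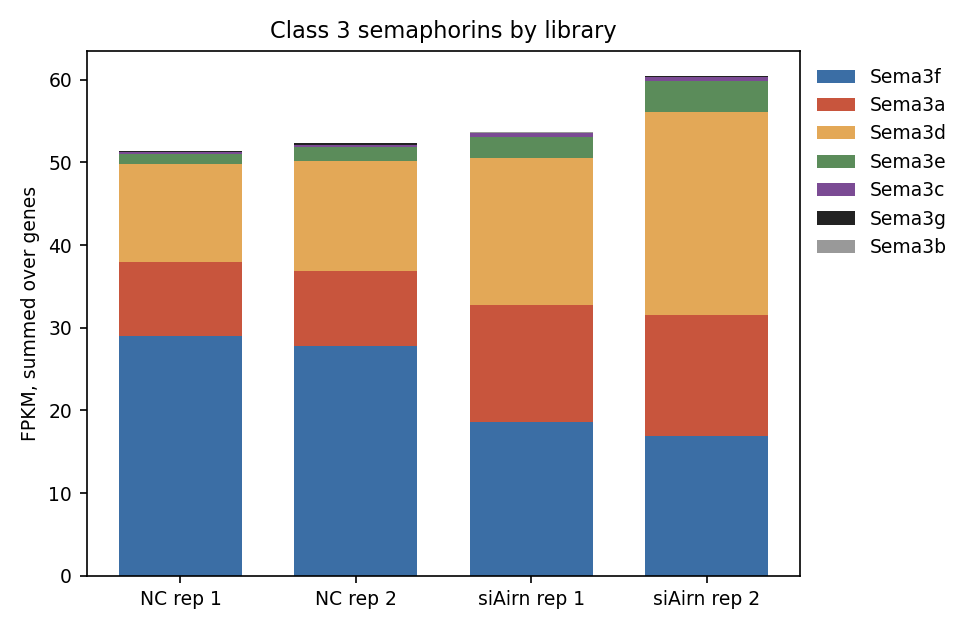
FPKM of the 7 class 3 semaphorins stacked for each library (vertical axis, summed FPKM; one bar per library). The *Sema3f* block shrinks from 29.03 and 27.84 FPKM in NC to 18.61 and 16.84 in siAirn while the *Sema3a* and *Sema3d* blocks grow, and the whole bar stays between 51.4 and 60.5.

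The membrane-bound semaphorins of the list did not pass the test. *Sema6a* (gene ID 20358), a transmembrane ligand of plexins A2 and A4, had 1196 and 1371 counts in the NC libraries, against 1154 and 1114 with si*Airn*, or 72.8 ± 4.23 and 63.4 ± 0.609 CPM (SD, n = 2 each). Both si*Airn* libraries were below both NC libraries by CPM, at a log2 fold change of -0.20 (SE 0.07; adjusted p = 0.0959 in the quasi-likelihood test of edgeR, with Benjamini-Hochberg adjustment). With the GC and length trends removed the log2 fold change was -0.37 and passed (adjusted p = 0.0374 by edgeR). *Sema7a* (gene ID 20361), which signals through integrin beta 1 and plexin C1, had 13 and 16 counts in the NC libraries, against 15 and 16 with si*Airn*. The groups overlapped, and the ratio of the summed counts was 1.05, with an exact 95% interval from 0.614 to 1.81. Its log2 fold change was 0.08 (SE 0.40; adjusted p = 0.915 by edgeR). That interval holds counting error alone, so changes within it, and some beyond it, could go undetected at this depth.

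Of the 4 plexins of the list, both that passed the test were higher in si*Airn*. *Plxna1* (gene ID 18844), the plexin that pairs with neuropilin 1 for Sema3a, had 1763 and 1927 counts in the NC libraries, against 2722 and 2936 with si*Airn*. The libraries of the groups were clearly apart, at 103 and 107 CPM against 151 and 166. It rose from 104.7 ± 2.57 to 158 ± 10.9 CPM (SD, n = 2 each), by a log2 fold change of 0.60 (SE 0.07; adjusted p = 0.0068 in the quasi-likelihood test of edgeR, with Benjamini-Hochberg adjustment). In GENCODE M21, 10.7% of its exonic bases lie under the antisense gene *Gm26811*, for which no row was found in the table, and whether the counting used strand is not given in the sources used here. For the other 9 members the share under exons of other genes was 0.

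*Plxnb2* (gene ID 140570), a receptor for class 4 semaphorins that is also bound by angiogenin, had 2886 and 3241 counts in the NC libraries, against 3625 and 4159 with si*Airn*. Its CPM were 168 and 179 in NC and 201 and 235 in si*Airn*, without overlap, although the si*Airn* libraries lay further from each other than the groups' nearest libraries did. The mean rose from 174 ± 7.59 to 218 ± 24.5 CPM (SD, n = 2 each), by a log2 fold change of 0.33 (SE 0.09; adjusted p = 0.0482 in the quasi-likelihood test of edgeR, with Benjamini-Hochberg adjustment). Among the members, this call was the closest to the threshold. It was lost with upper-quartile normalization (log2 fold change 0.32, adjusted p = 0.0572) and with all genes of at least 1 count tested (0.32, 0.0623), both by edgeR. It was also lost with the GC and length trends removed (0.29, 0.0951 by edgeR) and with limma on log2(FPKM + 0.1) (0.35, 0.0502). The fold change thus moved little where the call was lost. *Plxnb2* passed in 5 of 9 other fits on all 4 libraries. Without si*Airn* replicate 2 the log2 fold change was 0.21 and was not called (adjusted p = 0.171 by edgeR).

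The other plexins of the list did not separate the groups. *Plxna2* (gene ID 18845), another A plexin, had 2794 and 2495 counts in the NC libraries, against 3316 and 2600 with si*Airn*. Replicate 1 was above replicate 2 in both groups, and the groups overlapped at 150.5 ± 17.8 and 165 ± 25.8 CPM (SD, n = 2 each). Its log2 fold change of 0.14 (SE 0.12; adjusted p = 0.477, quasi-likelihood test of edgeR) was -0.09 with the GC and length trends removed and -0.03 without si*Airn* replicate 1, so its direction is not settled. *Plxnd1*, the receptor of Sema3e, had 11798 and 10621 counts in the NC libraries, against 13058 and 11594 with si*Airn*. At 638 ± 71.7 and 689 ± 47.3 CPM (SD, n = 2 each) the groups overlapped, with a log2 fold change of 0.11 (SE 0.09; adjusted p = 0.432, quasi-likelihood test of edgeR). It had the most counts of the list, so its counting error was small beside the spread between replicates.

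Among the 4 plexins, *Plxnd1* held 70.9% and 67.9% of the summed FPKM in NC and 65.8% and 62.3% in si*Airn*. The A plexins together held 14.5% and 14.8% in NC and 17.5% and 17.4% in si*Airn*. The ratio of *Plxna1* to *Plxna2* in FPKM was 0.760 and 0.945 in NC and 1.01 and 1.38 in si*Airn*. *Plxna1* was thus the lower of the 2 in both NC libraries and the higher in both si*Airn* libraries, in replicate 1 by less than 1%.

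The whole family gave a mixed picture. Of all 24 semaphorins and plexins tested, the members included, 7 were called higher and 4 lower. Class 3 had 4 called higher and 1 lower of 6 tested, classes 4 to 7 had 1 higher and 2 lower of 11, and the plexins had 2 higher and 1 lower of 7. Over all genes tested, 8.27% were called higher and 8.56% lower. These counts change with the GC and length trends removed, where *Sema3a* (higher) and *Sema3f* (lower) were the called genes of class 3, *Sema4c* and *Plxnb2* lost their calls too, and *Sema6a* and *Plxnc1* were called lower, with 8.26% of all genes called. Outside the list, *Sema6d*, a ligand of plexin A1, rose by a log2 fold change of 0.51 (from 97.3 and 88.0 CPM to 129 and 135). *Sema6b*, a ligand of A plexins, fell by 0.51 on the log2 scale (from 107 and 104 CPM to 74.1 and 74.0), and *Sema4c*, a ligand of plexin B2, fell by 0.31 (from 56.5 and 56.8 CPM to 48.7 and 42.5). *Plxna4* fell by 0.59 (from 46.9 and 37.4 CPM to 31.1 and 24.7), the opposite direction to *Plxna1*, and both kept their directions in every alternative run. *Sema6b* and *Sema6d* passed in 9 of 9 fits on all 4 libraries, *Plxna4* in 7 and *Sema4c* in 4. *Plxnc1*, the Sema7a receptor, had a log2 fold change of -0.40 that did not pass (adjusted p = 0.068, edgeR's quasi-likelihood test), although it passed in 6 of 9 other fits on all 4 libraries, among them the fit with the GC and length trends removed (-0.57, adjusted p = 0.0375 by edgeR). With si*Airn* replicate 2 left out it stood at -0.25 (adjusted p = 0.183 by edgeR), with NC replicate 1 left out at -0.29 (0.297), and with si*Airn* replicate 1 left out at -0.58 (0.00611). *Plxdc1* (-1.52) and *Plxdc2* (0.52), which are named for a plexin-like domain and are not semaphorin receptors of this family, were called too, the latter in 3 of 9 fits. With either NC library left out, none of these genes outside the list was called, as for the members. Calls were also lost without si*Airn* replicate 2 for *Sema4c* (adjusted p = 0.186 by edgeR), *Plxna4* (0.0616), *Plxdc1* (0.0927) and *Plxdc2* (0.110), and without si*Airn* replicate 1 for *Plxdc1* (0.0527). Not tested for low counts were *Sema3b*, *Sema4f*, *Sema5b*, *Plxna3* and *Plxnb3*.

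**Figure D4:**
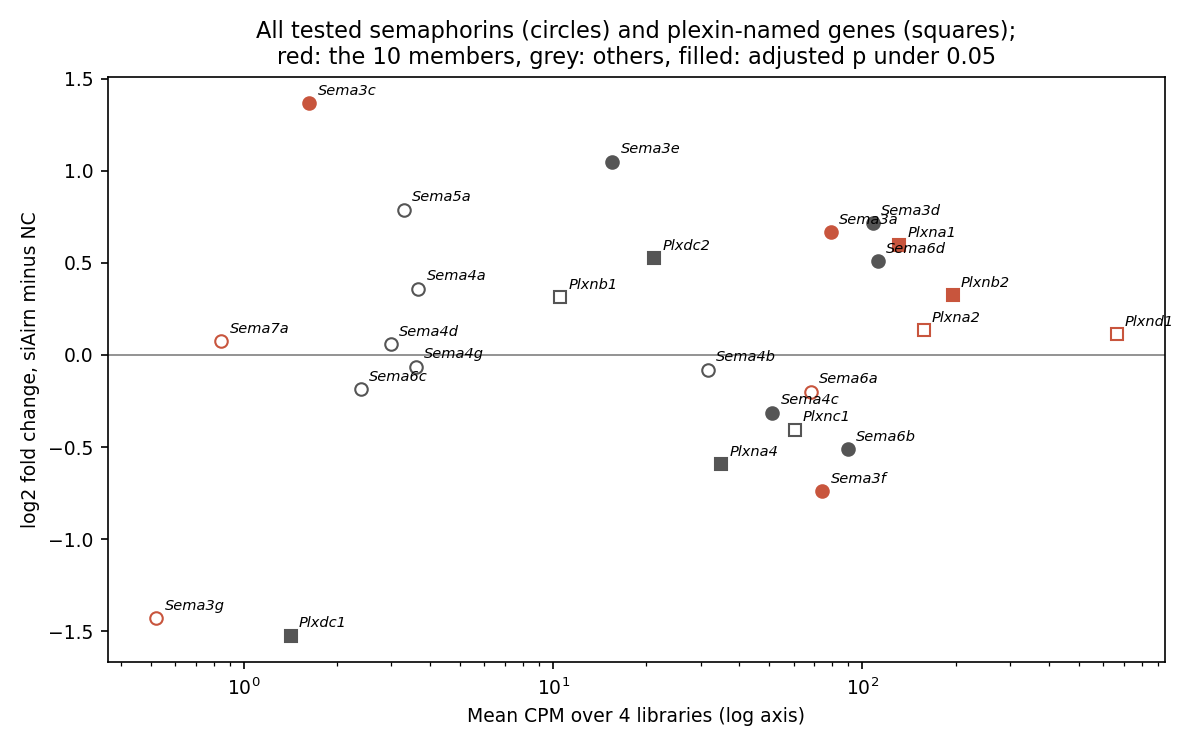
Log2 fold change, siAirn minus NC (vertical axis), against mean CPM over the 4 libraries (horizontal log axis) for every tested semaphorin (circles) and gene with a plexin name (squares); red marks the 10 members, grey the others, and filled symbols have an adjusted p under 0.05. Called genes lie on both sides of 0, with *Plxnd1* at the right edge close to 0.

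The co-receptors of the class 3 ligands did not pass the test. *Nrp1*, the co-receptor for Sema3a, had 232 and 192 CPM in NC and 251 and 213 in si*Airn* (log2 fold change 0.13, adjusted p = 0.456, by edgeR), and its groups overlapped. *Nrp2*, the co-receptor for Sema3f, had 824 and 799.7 CPM in NC and 908 and 825 in si*Airn* (0.09, adjusted p = 0.371 by edgeR). *Kdr*, the VEGF receptor that shares the neuropilins, had a log2 fold change of 0.02. Of the 16 co-receptors and partners tested, 1 was called higher and 2 lower, with a median log2 fold change of 0.04. The 1 that was higher was *Itga1*, an integrin subunit (0.38, adjusted p = 0.024 by edgeR). The 2 that were lower were *Trem2* (-1.36) and *Tyrobp* (-0.85), a receptor and its signalling adaptor that associate with plexin A1 in myeloid cells. With the GC and length trends removed, *Itga1* was at 0.06 and was not called (adjusted p = 0.698 by edgeR), as without si*Airn* replicate 2 (0.0647), and *Tyrobp* was at -0.63 and was not called (0.0635). The co-receptors *Nrp2* and *Kdr* were then at -0.02 and -0.09, so they have no settled direction.

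Downstream of the plexins, few genes passed in the main test. Of 21 small GTPases and regulators tested, 2 were called, both higher, with a median of -0.07. The 2 were *Rnd3*, a small GTPase that binds plexins (from 67.9 and 69.0 CPM to 95.9 and 105), and *Farp1*, an exchange factor that binds A plexins (from 75.0 and 82.0 CPM to 95.0 and 120). The most abundant of these genes, *Rhoa*, *Rac1* and *Rap1b*, were not called. Of 20 kinases and cytoskeletal effectors tested, 1 was called higher and 2 lower, with a median of -0.06. *Rock2*, a kinase downstream of RhoA, rose from 196 and 191 CPM to 269 and 283, a log2 fold change of 0.51 (adjusted p = 0.0069 in the quasi-likelihood test of edgeR, with Benjamini-Hochberg adjustment). *Fes* (-0.48) and *Cdk5* (-0.41), kinases that act in the response to Sema3a, fell. With the GC and length trends removed, *Rock2* was at 0.24 and kept its call. *Farp1* (log2 fold change 0.48, adjusted p = 0.0560 by edgeR), *Fes* (-0.42, 0.0587) and *Cdk5* (-0.27, 0.115) lost theirs. The log2 fold change of *Farp1* had been 0.45, so those of *Farp1* and *Fes* moved little. Without si*Airn* replicate 2, *Farp1* was at 0.28 and lost its call, as did *Fes* (adjusted p = 0.0779 by edgeR), and *Cdk5* lost its call without si*Airn* replicate 1 (0.0834). For the co-receptors, the GTPases and the kinases and effectors, the shares called in the main test lie near or under the 16.8% of all genes. With a replicate block, a pairing that is not established, 5 co-receptors, 9 GTPases and 10 kinases and effectors were called, beside 35.5% of all genes. With the GC and length correction added to the block, the counts were 5, 11 and 10, beside 30.7% of all genes.

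The genes most like each called member over the 4 libraries were sought among the 82 other tested genes of these lists, by the distance between centred log2 CPM. *Sema3a* was nearest to *Plxna1* (0.083), then to *Rnd3* and *Rock2*. *Plxna1* was nearest to *Rnd3* (0.048), then to *Sema3a* and *L1cam*. *Sema3c* lay farther from every gene, with *Sema3a* nearest (0.403) and *Tiam1* and *Plxna1* next. *Sema3f* was nearest to *Sema6b* (0.239), then to *Plxna4* and *Fes*, and *Plxnb2* to *Pak1* (0.058), *Itga1* and *Sema4a*. With 4 libraries in 2 groups, such likeness mostly restates which genes differ by a similar amount between the groups.

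Markers of LSEC and of other cells moved with the labels. Summed over 13 LSEC markers the level was 3909 and 3962 CPM in NC and 2769 and 2510 in si*Airn*, with 10 of 12 tested called lower. Pan-endothelial markers summed to 12529 and 11802 CPM in NC and 9280 and 8076 in si*Airn*, with 8 of 13 called lower. *Sema3f* was lower as they were, while *Plxnd1*, *Nrp1* and *Kdr* were not called. Stellate cell and fibroblast markers, led by *Dcn*, *Acta2* and *Col1a1*, summed to 1227 and 1450 CPM in NC and 1506 and 1970 in si*Airn*, with 5 of 14 called higher. Hepatocyte markers, led by *Alb*, *Trf* and *Serpina1c*, summed to 708 and 886 CPM in NC and 976 and 1270 in si*Airn*, with 2 of 13 called higher. Of the 7 semaphorins and plexins called higher, *Sema3a*, *Plxna1*, *Plxnb2*, *Sema3d* and *Sema3e* rank the 4 libraries as both sums do, and *Sema3c* and *Sema6d* do not. All 7 separate the groups, so only the order within each group was free to differ from that of the sums. The share of all genes with this order was not computed, so the ranking alone says little about these genes. The stellate sum differed 1.18-fold within NC, 1.31-fold within si*Airn* and 1.30-fold between the groups, and the hepatocyte sum 1.25-fold, 1.30-fold and 1.41-fold. In the same order, the members called higher differed 1.03-fold, 1.05-fold and 1.59-fold (*Sema3a*), 1.22-fold, 1.13-fold and 2.59-fold (*Sema3c*), 1.04-fold, 1.10-fold and 1.51-fold (*Plxna1*), and 1.06-fold, 1.17-fold and 1.25-fold (*Plxnb2*). The called stellate markers had log2 fold changes of 0.98 (*Reln*), 0.76 (*Col3a1*), 0.73 (*Lox*), 0.43 (*Lum*) and 0.33 (*Acta2*), and the called hepatocyte markers of 1.19 (*Apoa1*) and 0.70 (*Apob*). The other markers of these lists were not called, and 1 of each list was negative, *Pdgfra* (-0.01) and the scarce *Cyp3a11* (-0.83). *Alb* made up much of the hepatocyte sum, with 497 and 638 CPM in NC and 705 and 900 in si*Airn*. *Col3a1* went from 80.4 and 82.8 CPM in NC to 130 and 147 in si*Airn*, without overlap. Kupffer cell and macrophage markers, led by *Lyz2*, *Cd68* and *Cd5l*, summed to 248 and 316 CPM in NC and 192 and 160 in si*Airn*, with 7 of 12 called lower, as *Trem2* and *Tyrobp* were. Markers of arterial, venous and capillary endothelium, led by *Apln*, *Sox17* and *Lhx6*, summed to between 609 and 1082 CPM, with 3 called higher and 1 lower of 10. Markers of cholangiocytes (led by *Krt19*, *Spp1* and *Cldn4*, 37.7 to 42.5 CPM), of mesothelium (*Gpm6a*, *Lrrn4* and *Wt1*, 10.6 to 15.3 CPM) and of lymphocytes (*Cd3e*, *Cd79a* and *Cd4*, 3.87 to 5.60 CPM) had low sums in every library. The part of other cells in the values of the members was not tested.

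Under the alternatives tried, *Sema3a*, *Sema3f* and *Plxna1* passed in 9 of 9 fits on all 4 libraries, with log2 fold changes from 0.44 to 0.67, from -0.75 to -0.61 and from 0.50 to 0.63. With 1 NC library left out, their adjusted p rose to between 0.0607 and 0.0948 (edgeR's quasi-likelihood test), and all 3 kept their direction and an unadjusted p of at most 0.00201.

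**Figure D5:**
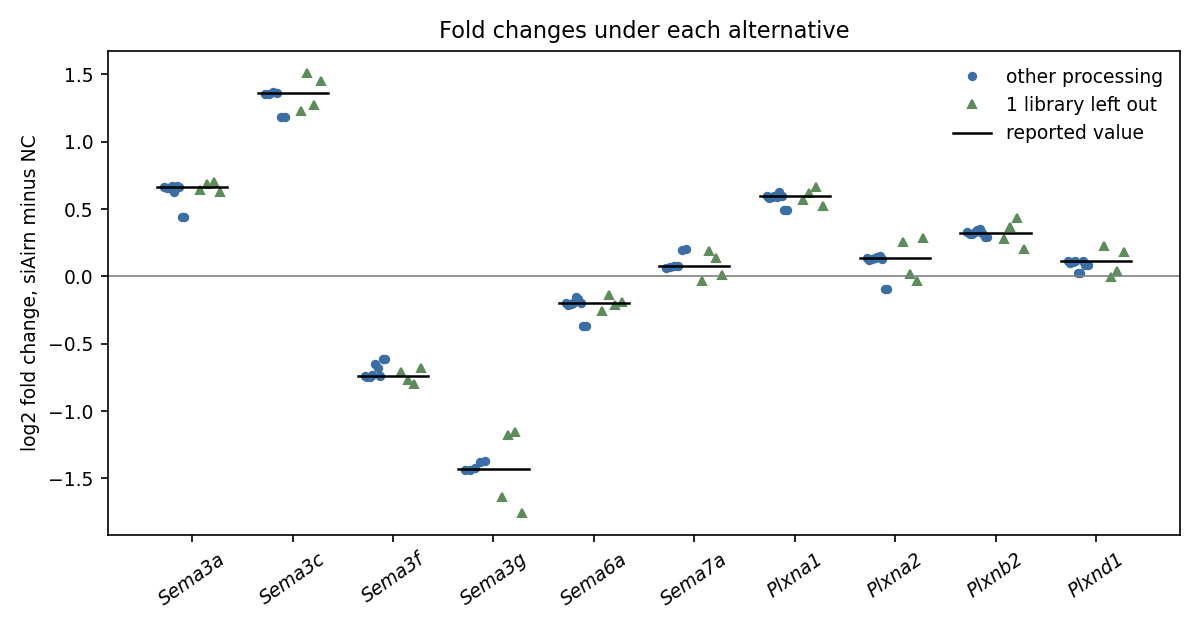
Log2 fold change of each member, siAirn minus NC (vertical axis), as reported (black line), under other processing of all 4 libraries (blue points) and with 1 library left out (green triangles). *Sema3a*, *Sema3c*, *Plxna1* and *Plxnb2* stay above 0 and *Sema3f*, *Sema3g* and *Sema6a* below it throughout, whereas *Plxna2*, *Plxnd1* and *Sema7a* have points on both sides.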

How the data were processed

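RNA-seq of 2 NC and 2 si*Airn* libraries was used, grouped by label. The authors deposited estimated counts, not normalized, of which 76.5% to 76.8% in a library are exactly whole as written, with no tolerance and with counts of 0 included, or 73.8% to 74.1% of those above 0 (for the members, all). The other deposited column was taken as the authors' FPKM, since it scales with count, length and library total. BWA, Bowtie2 and RSEM are named in the submitters' processing notes, as is hg19, a human build, so no coordinate was taken from it. Reads were single-end, of 50 bases. Strand use is not given in the sources used here.

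Counts were rounded and compared with edgeR 4.0.16 (R 4.3.3; TMM, filterByExpr, quasi-likelihood test, no covariate), with p-values adjusted by the Benjamini-Hochberg method over all genes tested. The common biological coefficient of variation was 0.0754. An exact permutation test of 2 against 2 cannot go below 0.333 (two-sided) and was not used. Ratios of summed counts have exact binomial 95% intervals. Alternatives used DESeq2 1.42.0, limma 3.58.1 on log2(FPKM + 1 or 0.1) for genes of mean FPKM of at least 1, other filters and scalings, a replicate block, a correction for GC content and length (splines of 5 degrees of freedom, GENCODE M21) and each library left out. In the last, the lone library is assumed to vary like the other group. The calculations were tested on simulated data.

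The 10 members and the lists were chosen with earlier results of these data known. Named genes were all members, the called genes of each pathway list (or, with fewer than 3, its 3 most abundant), the 3 most abundant of each marker list, the 3 genes most like each called member, and *Airn*. Chosen after their values were seen were *Nrp1*, *Nrp2*, *Kdr*, *Plxnc1*, *Plxnb1*, the semaphorins and plexins not tested, *Clec4g*, *Cd209b*, *Lyve1*, *Hgf*, *Pdgfra*, *Cyp3a11* and the called stellate and hepatocyte markers. Protein features were not analysed here.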

Additional observations from a re-analysis of the deposited data

How the results depend on the processing

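The main number of members called was 5. It was 4 with DESeq2 and with limma on log2(FPKM + 1) (*Sema3c* without an adjusted p or not tested), and 4 with upper-quartile normalization and without a filter beyond 1 count (*Plxnb2* lost). It was also 4 with the GC and length correction, which lost *Sema3c* and *Plxnb2* and gained *Sema6a*. It was 3 with limma on log2(FPKM + 0.1), where 7 members could be tested, and 3 at an adjusted p under 0.01. The replicate block gave 6 (*Sema6a* added), and the same block with the GC and length correction gave 6. The deviations of same-numbered libraries had a correlation of 0.27 over 2 pairs, and the sources used here do not say whether a number marks a shared animal, isolation or day, so the pairing is not established. The block raised the share of all genes called from 16.8% to 35.5%, and the GC and length correction lowered it to 8.26%. With both, the share was 30.7%. DESeq2 called 1719 of 18014 genes (9.54%), of which 6629 had no adjusted p and could not be called. With 1 library left out, 0 to 4 members were called and their median log2 fold change was 0.087 to 0.24. Reversed values, of 3 members that were not called, were those of *Plxna2* (-0.090 with the GC and length correction, -0.10 with the replicate block as well, and -0.035 to 0.29 with 1 library left out, lowest without si*Airn* replicate 1), *Sema7a* (-0.031 to 0.19, lowest without NC replicate 1) and *Plxnd1* (-0.0012 to 0.23, lowest without NC replicate 2). The same alternatives were run for the called genes of the pathway lists and for *Nrp1*, *Nrp2*, *Kdr* and *Plxnc1*, a choice made after seeing the data, and not for the other genes named. Of these, *Kdr* (-0.093 and, with the replicate block as well, -0.097; -0.098 to 0.13 with 1 library left out, with -0.073 without NC replicate 2), *Nrp2* (-0.021 and -0.022; 0.022 to 0.16 with 1 left out) and *Nrp1* (-0.0013 to 0.27 with 1 left out) changed sign, and none of the 3 was called in any fit. Of the lists, other semaphorins had 5 called, 3 by each limma fit and 2 after the GC and length correction, and 0 to 6 with 1 library left out. Other plexins had 3, 1 by each limma fit, and 0 to 3 with 1 left out. Co-receptors had 3, 5 with the replicate block with and without the correction, 1 with the correction alone, and 0 to 5 with 1 left out. Small GTPases had 2, 1 by each limma fit, 9 with the replicate block and 11 with the correction added, and 0 to 2 with 1 left out. Kinases and effectors had 3, 10 with the replicate block with and without the correction, and 0 to 6 with 1 left out. The cause of these differences was not tested. Limma tested fewer genes, and *Plxdc1* was not among them. However, *Sema3e*, *Sema4c*, *Plxna4*, *Plxdc2*, *Farp1* and *Fes* were tested by both limma fits and lost their calls there. With 2 libraries a group, small differences are not resolved, and *Sema3c*, *Sema3g* and *Sema7a* are limited by their counts.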
